A study of Mus musculus with 4 samples.

Results

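The genes of the path from receptor tyrosine kinases to Ras and the MAP kinases were followed in liver tissue of mice with and without the phosphatase Shp2 in hepatocytes. The list held 35 genes chosen by name, with earlier results of these data known. They were ligands, receptors, adaptors, Ras proteins with their activators and inhibitors, the kinases of the cascade and their regulators. In the annotation of the array 27 of the 35 had a probe, and 21 were detected well enough to be tested, out of 9311 rows tested in all (8579 genes and 732 probes with no symbol). The controls were livers of 2 mouse samples with floxed alleles of the gene for Shp2, labelled Shp2Floxed/Floxed and WT. The knockouts were livers of 2 samples labelled Shp2hep-/-, whose mice carried Cre under the albumin promoter, which is active in hepatocytes. Whether the other cells of the liver kept the gene intact was not tested. All samples were from mice 2 months of age that were not fasted, and 500 ng of total RNA each was labelled for Illumina whole-genome bead arrays. Neither a Cre-positive group without floxed alleles nor the number of animals behind each RNA is given in the labels, so that p-values measure only the spread between these samples, which may be technical.

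A growth factor that binds a receptor tyrosine kinase makes the receptor phosphorylate itself and docking proteins such as Gab1 and Frs2. Grb2 then brings the exchange factor Sos to the membrane, Sos loads Ras with GTP, and Ras starts the kinase chain of Raf, MEK and ERK. Shp2, encoded by Ptpn11, binds phosphorylated Gab and Frs proteins and is needed for full activation of Ras by many receptors. In liver the EGF receptor and Met, the receptor of hepatocyte growth factor, drive hepatocyte growth after injury.

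No member of the pathway passed the test between knockout and control. In limma's test the adjusted p (Benjamini-Hochberg over all 9311 rows, threshold 0.05) of the 21 tested members ran from 0.103 to 0.989. Of the 21 members 0 were called, and of all rows 0.795% were. At so low a share, 0 of 21 does not set the members apart from other rows. At an unadjusted p under 0.05 there were 5 members (23.8%), 4 higher (Pebp1, Grb2, Sos1 and Btc) and 1 lower (Rps6ka3). Of all rows 16.5% were, 9.45% higher and 7.07% lower. Values are log2 intensities after background correction and quantile normalization, differences are knockout minus control with the standard error (SE) of the model, and n is 2 arrays per group throughout. Both knockout arrays lay on 1 side of both control arrays for 12 of the 21 members (57.1%), 8 higher and 4 lower. This held for 48.6% of all rows (24.8% higher and 23.8% lower). Grb2, Sos1 and Met, counted as higher, were detected in no control and entered through knockout alone. Their side was given by the filter, also for Grb2 and Sos1 at the unadjusted p, so these counts are no sign of a shift.

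**Figure D1:**
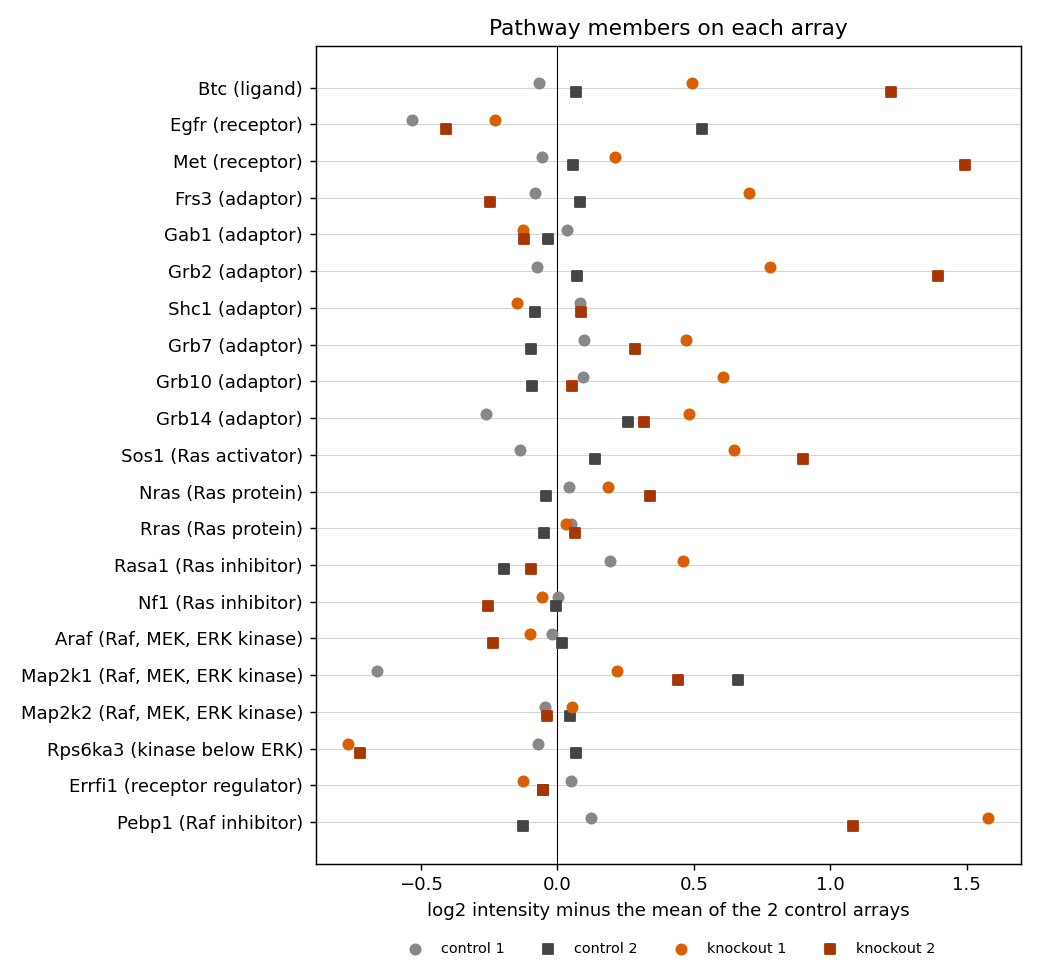
Each of the 21 tested members on the 4 arrays, as log2 intensity minus the mean of the 2 control arrays, in order of the members' roles. Circles and squares are replicates 1 and 2, grey for control and orange for knockout; both knockout points of Pebp1, Grb2 and Sos1 lie to the right of both control points, those of Rps6ka3 to the left, and those of Map2k2 and Rras overlap the controls. The control square of Errfi1 is hidden behind the knockout square, which has the same value.

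The arrays gave 11542 to 12328 detected probes, and gene values correlated at r = 0.984 between the controls, at r = 0.982 between the knockouts and at r between 0.964 and 0.974 across the groups; genes are not independent replicates. Ptpn11 itself had scanner intensities of 7094 and 7531.3 units in control and 2973.8 and 3246.3 in knockout on its brightest probe, a difference of −1.33 (SE 0.18, limma adjusted p = 0.0599), so that the targeted transcript lay below both controls in both knockouts without passing the threshold. Of the hepatocyte markers 5 were detected on all arrays, with Serpina1c and Ttr near the top of the range. The probe of Alb, the albumin gene, was near background in every sample (5.90 and 5.58 in control, 5.75 and 6.05 in knockout), and that of Tat did not pass the detection filter. The mean log2 level of the 6 tested hepatocyte markers of 8 listed was 13.61 and 13.50 in control and 13.42 and 13.61 in knockout. The mean over 10 tested macrophage markers of 14 listed was 9.07 and 8.17 in control against 9.54 and 9.42 in knockout, that over 7 of 10 stellate and matrix markers 9.46 and 9.03 against 9.70 and 9.85, and that over 4 of 6 red cell markers 10.09 and 9.60 against 11.11 and 10.74. Over 8 of 8 endothelial markers it was 8.91 and 7.96 against 8.10 and 8.58. Of the markers of bile duct cells 1 of 5 (Sox9) and of lymphocytes 2 of 5 (Ptprc and Cd79b) were tested, while Krt19, Krt7, Cd3e, Cd79a and Cd8a did not pass the detection filter. In whole tissue, fewer cells of a type and less RNA per cell cannot be told apart, and the part of these other cells in the members' values was not tested.

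Ligands were at or near the limit of detection. Btc, which encodes betacellulin, a ligand of the EGF receptor, had intensities of 260.9 and 276.4 units in control and 286.7 and 357.1 in knockout. All 4 values were above background and both knockout values were above both controls, but the difference of 0.86 (SE 0.29) did not pass (limma adjusted p = 0.241). It was 0.49 without knockout replicate 2. The single probes of Hgf, the Met ligand, which stellate cells supply in liver, and of Egf were each above background on 1 array, knockout replicate 1. Hgf read 239.8 and 234.9 units in control and 253.4 and 244.2 in knockout, and Egf read 212.2 and 243.2 in control and 256 and 230.8 in knockout; both were left untested, and these values allow no statement on a change.

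The EGF receptor gene Egfr was the member measured by the most detected probes, and all 4 read lower on average in knockout. Its brightest probe, ILMN_2693922, by which the gene entered the test, gave 7038.4 and 14549.9 units in control and 8671.3 and 7611.6 in knockout. The controls stood further apart from each other than from the knockouts, and the groups overlapped (difference −0.32, SE 0.37, limma adjusted p = 0.733). The other 3 probes did not overlap between the groups. ILMN_3128725 gave 8145.7 and 9065.7 units in control and 6017.8 and 5866.9 in knockout (difference −0.55). ILMN_3052260 gave 5801.8 and 7515.1 against 4939.8 and 4914.5 (difference −0.45), and the dimmest, ILMN_2614432, gave 411.5 and 567 against 324.8 and 330.9 (difference −1.26). Control replicate 2 was the highest array on each of the 4. Where each probe was a row of its own, limma's adjusted p for these 4 ran from 0.196 to 0.750, so that none passed. The brightest probe turned to 0.21 without control replicate 2, and the mean of the 4 probes, tested as 1 value, differed by −0.65 (adjusted p = 0.311).

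**Figure D2:**
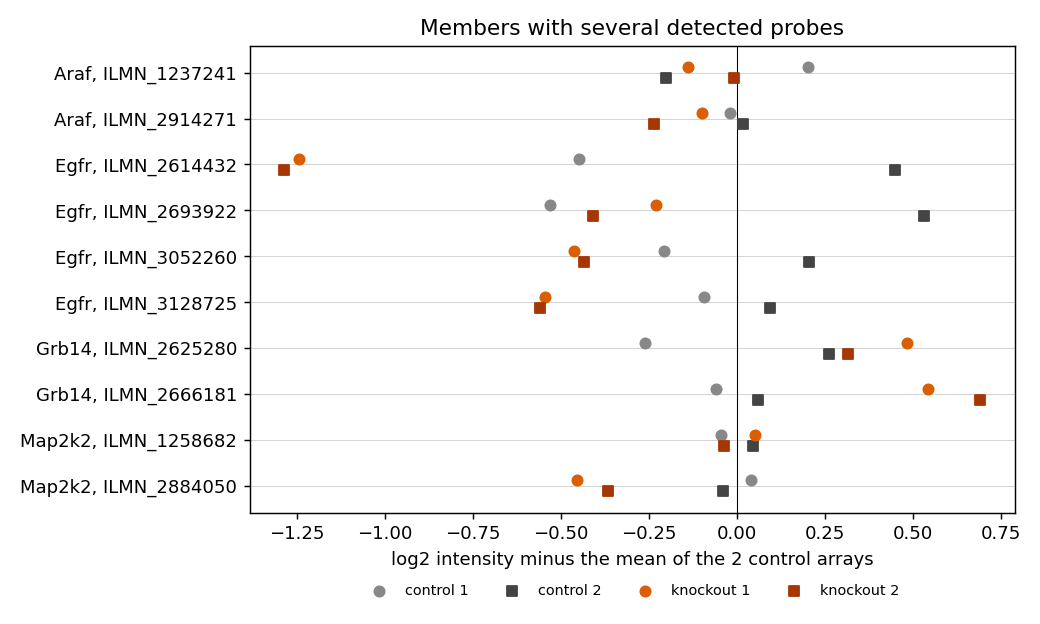
The 10 detected probes of the 4 members that had several, each as log2 intensity minus the mean of the 2 control arrays, with circles and squares for replicates 1 and 2 and orange for knockout. Knockout points of Egfr lie left of both controls on 3 probes and between them on ILMN_2693922; those of Grb14 lie right of both controls on both probes, and Map2k2 is lower on one probe only.

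Met was not above background on either control array, at 245.8 and 262.3 units, and was above it on both knockout arrays, at 250.6 and 351.6. The 2 knockouts differed from each other by far more than the controls did. By the limit of detection the knockout mean was at least 1.51-fold higher in these samples (limma adjusted p = 0.407). This bound carries no sampling error, and its direction was given by the detection filter. The bound rests on knockout replicate 2: the fitted difference was 0.85 with all arrays and 0.21 without that array. Before normalization knockout replicate 1 read below control replicate 2. For Erbb2 and Erbb3, the co-receptors of the EGF receptor, no probe is in the annotation, and they were not analysed here.

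Among the docking and adaptor proteins, Gab1 and Shc1 were detected clearly on all arrays and had differences near 0. Gab1, the main docking protein for Shp2 below Met and the EGF receptor, had log2 values of 10.46 and 10.39 in control and 10.30 and 10.31 in knockout. Its difference of −0.12 had a 95% interval from −0.56 to 0.32, so that a change of 2-fold in either direction lay outside it. Shc1, which links receptors to Grb2, had 12.93 and 12.76 in control and 12.70 and 12.93 in knockout, with the groups overlapping (difference −0.03, 95% interval from −0.52 to 0.46). The other 3 probes of Shc1 and all 4 probes of Gab2, the relative of Gab1 that is prominent in blood cells, were above background on no array. Frs3, a docking protein of FGF receptors, was detected on both controls and 1 of the 2 knockouts, and its intensities of 260 and 277 units in control and 301.7 and 258.4 in knockout overlapped. Its relative Frs2 had no annotated probe and was not analysed here.

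Grb2, the adaptor that carries Sos to the receptor, was dim in every sample. Its probe read 220.9 and 242.8 units in control, below the limit of detection, and 257.8 and 307.7 in knockout, above it. The knockout mean was at least 1.32-fold higher in these samples, a bound without sampling error (limma adjusted p = 0.154). The fitted difference of 1.09 (SE 0.26) depends on values below detection and is no bound. Sos1, the exchange factor that Grb2 recruits, had the same pattern of detection, with 226.1 and 253.4 units in control, below detection, and 258.6 and 286.3 in knockout. Its knockout mean was at least 1.18-fold higher in these samples, again without sampling error (limma adjusted p = 0.178). Grb2, Sos1 and Met entered the test only through their knockout arrays, so that a higher knockout value was given by the filter and is no sign of a common shift.

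Grb7, Grb10 and Grb14 form a family of adaptors that bind activated receptors through an SH2 domain, Grb10 and Grb14 being inhibitors of the insulin receptor. Grb7 had 13.27 and 13.08 in control and 13.64 and 13.46 in knockout, which did not overlap, with a difference of 0.38 (SE 0.19). The brighter probe of Grb14 had 9.05 and 9.57 in control and 9.79 and 9.62 in knockout, a difference of 0.40 (SE 0.24), and the dimmer probe differed by 0.62 in the same direction. Without control replicate 1 the brighter probe differed by 0.14. Grb10 overlapped between the groups, with 7.57 and 7.39 against 8.09 and 7.53, and its difference of 0.33 was 0.06 without knockout replicate 1. None of the 3 passed, with limma adjusted p of 0.412 for Grb7, 0.481 for Grb14 and 0.569 for Grb10.

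The Ras genes had differences of 0.26 and less. Nras had 11.40 and 11.32 in control and 11.55 and 11.70 in knockout (difference 0.26, 95% interval from −0.19 to 0.72), and both knockouts were above both controls. Rras, a relative of the classical Ras proteins, had 10.94 and 10.84 against 10.93 and 10.96, with overlap (difference 0.05, 95% interval from −0.40 to 0.49). Of the GTPase-activating proteins that switch Ras off, Rasa1 had 10.81 and 10.42 against 11.08 and 10.52, and Nf1, the neurofibromin gene, had 6.20 and 6.19 against 6.14 and 5.94. Their differences were 0.18 (SE 0.27) and −0.16 (SE 0.18). The arrays of Rasa1 differed more within each group than the group means did. Hras and the exchange factor gene Sos2 were not analysed here, as no probe is annotated for them.

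The kinases of the cascade included no member past an unadjusted p of 0.05. Araf, a Raf kinase, had 12.39 and 12.43 in control and 12.31 and 12.17 in knockout on its brighter probe (difference −0.17, 95% interval from −0.62 to 0.28), and its other probe overlapped between the groups (difference −0.07). Map2k2, the gene for MEK2, had 12.39 and 12.48 in control and 12.49 and 12.40 in knockout. The difference was 0.01 (95% interval from −0.44 to 0.46). Its dimmer probe differed by −0.41, with both knockouts below both controls, so that the 2 probes disagreed. Map2k1, the gene for MEK1, had controls of 6.24 and 7.56 that enclosed the knockouts at 7.12 and 7.34. Braf, Mapk3 and Rps6ka1 had no annotated probe and were not analysed here, and the scaffold gene Ksr1, which holds Raf, MEK and ERK together, was above background on no array.

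Rps6ka3, the gene for the kinase RSK2 that ERK activates, read lower in knockout. Its intensities were 298.4 and 310.9 units in control and 253.6 and 270.4 in knockout, all above background, and both knockouts were below both controls. The difference of −0.75 (SE 0.18) did not pass (limma adjusted p = 0.154). The knockout values were close to the limit of detection, and the difference ran from −1.07 to −0.52 over the alternatives that kept all arrays.

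With all arrays, Pebp1 had the largest fitted difference of the members detected on all 4; Grb2, Sos1 and Met, known only by bounds, cannot be ranked against it, and without knockout replicate 1 Btc was higher (1.18 against 1.09). Pebp1 encodes the Raf kinase inhibitor protein, which restrains the step from Raf kinases to MEK. The probe read 853.4 and 713.4 units in control and 2047.2 and 1521.6 in knockout, so that each knockout was well above each control. The difference was 1.33 on the log2 scale (SE 0.24, 95% interval from 0.72 to 1.94), 2.52-fold higher in knockout, and it ranked 197th by p among the 9311 rows. With a limma adjusted p of 0.103 it did not pass. It passed under 2 of the 10 alternatives that kept all arrays, an offset of 50 (adjusted p = 0.0469) and an intensity trend in the variance model (adjusted p = 0.0134), in a range up to 0.159. Only this 1 probe of Pebp1 is on the array, so agreement between probes could not be checked.

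Among the regulators of the receptors, Errfi1, the gene for MIG6, an inhibitor that binds the EGF receptor kinase and is induced by its signalling, was near the top of the intensity range in all samples. It had 46186 and 46202.1 units in control and 41137.3 and 42605.7 in knockout before normalization. The normalized values were 15.51 and 15.41 against 15.34 and 15.41, with a difference of −0.09 (95% interval from −0.54 to 0.36). Few probes are as bright, and quantile normalization gave control replicate 2 and knockout replicate 2 the same value. Cbl, a ubiquitin ligase that marks active receptors for breakdown, was above background on no array. The 2 probes of Src, a kinase activated by many of these receptors, were each above background on 1 knockout array and were not tested.

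**Figure D3:**
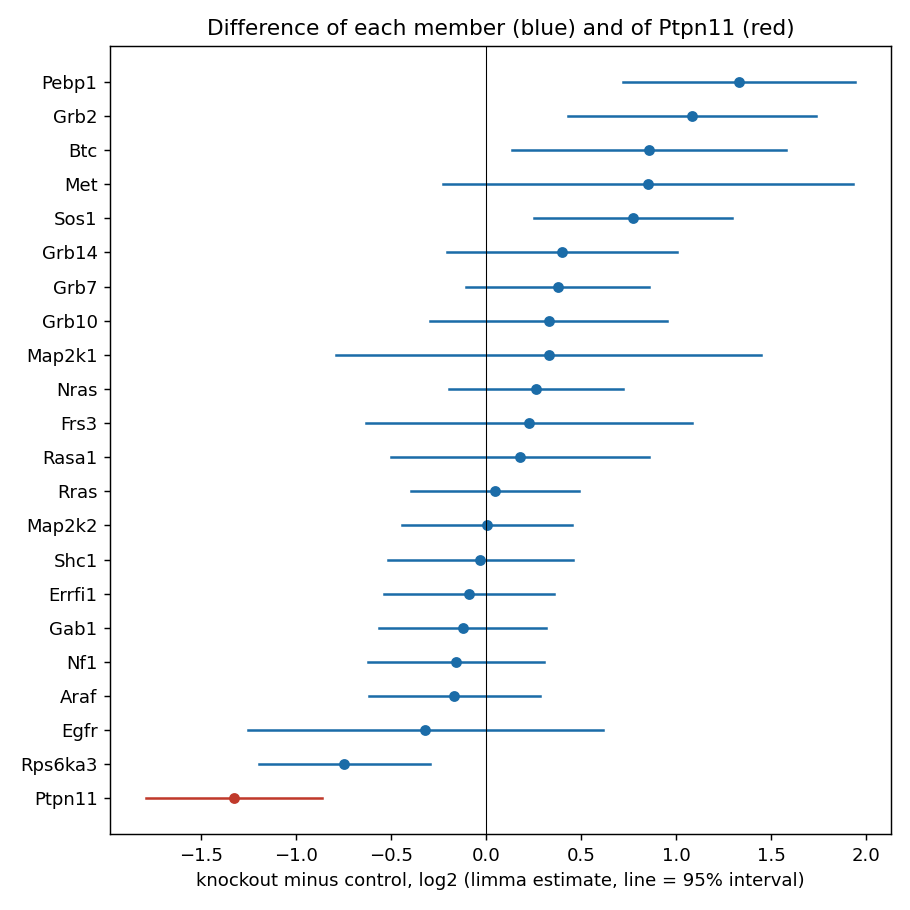
Differences between knockout and control for the 21 tested members (blue) and for Ptpn11 (red), as limma estimates on the log2 scale with 95% intervals not adjusted for the number of genes. Intervals of Pebp1, Grb2, Btc and Sos1 lie above 0 and that of Rps6ka3 below 0, and the other 16 members' intervals include 0. Grb2, Sos1 and Met were detected in no control, so their intervals rest on values below detection and the filter gave their side.

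Over the 21 tested members the median difference was 0.23, with 14 above 0 and 7 below, beside a median of 0.01 over all rows. In size the median absolute difference was 0.32 for the members and 0.25 for all rows. The members' value includes Grb2, Sos1 and Met, whose fitted differences depend on values below detection, and is no sign of larger changes. Among the 17 members detected on all 4 arrays the median difference was 0.05, with 10 above 0 and 7 below, which leaves out Grb2, Sos1, Met and Frs3. Over the 7856 rows detected on all 4 arrays it was −0.0025. Members just inside the detection filter, with 2 detected arrays, were Grb2, Sos1 and Met; just outside it, with 1, were Hgf, Egf and Src.

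Promoter sequence is shown for 3 members: Pebp1, described above, Egfr, read by 4 probes, and Errfi1, which is known as a gene induced by the pathway. The windows run from 250 bases before to 50 after a gene's start in RefSeq (GRCm38.p6), and 30 of the 35 members had at least 1. They were searched on both strands for TGANTCA (the AP-1 site), TGACGTCA (the cAMP response element, CRE), CCAAT (the CCAAT box) and TATAAA (the TATA box), and capitals mark the matches.
Pebp1, chr5:117287515-117287814, minus strand: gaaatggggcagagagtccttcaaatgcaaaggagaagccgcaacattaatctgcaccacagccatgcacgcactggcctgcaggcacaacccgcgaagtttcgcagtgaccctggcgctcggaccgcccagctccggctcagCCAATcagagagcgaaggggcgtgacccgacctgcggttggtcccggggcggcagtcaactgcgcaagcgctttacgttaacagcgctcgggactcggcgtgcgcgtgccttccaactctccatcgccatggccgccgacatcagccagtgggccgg
Egfr, chr11:16751953-16752252, plus strand: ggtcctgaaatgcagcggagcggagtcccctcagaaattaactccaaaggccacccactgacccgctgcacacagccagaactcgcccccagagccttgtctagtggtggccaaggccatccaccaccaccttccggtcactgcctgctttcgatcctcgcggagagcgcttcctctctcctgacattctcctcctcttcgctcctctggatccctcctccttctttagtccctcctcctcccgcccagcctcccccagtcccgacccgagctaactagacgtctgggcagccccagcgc
Errfi1, chr4:150854820-150855119, plus strand: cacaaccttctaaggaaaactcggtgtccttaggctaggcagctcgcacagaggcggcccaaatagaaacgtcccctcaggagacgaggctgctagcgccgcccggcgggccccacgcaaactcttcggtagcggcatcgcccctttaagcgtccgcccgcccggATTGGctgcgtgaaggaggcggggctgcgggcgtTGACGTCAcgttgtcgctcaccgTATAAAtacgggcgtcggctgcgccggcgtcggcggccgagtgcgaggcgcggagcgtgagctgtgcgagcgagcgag
The Pebp1 window held a CCAAT box 107 bases before the start. The Errfi1 window, 1 of 2 for that gene, held a CCAAT box on the minus strand 85 bases, a CRE 51 bases and a TATA box 28 bases before it, and the Egfr window held none of the 4. Among 32851 windows of all genes a CRE was found in 1.79%, an AP-1 site in 7.81%, a TATA box in 13.6% and a CCAAT box in 37.4%. Among the members' 42 windows these letters were in 2, 3, 2 and 16 windows in the same order. Such a match is a description of the sequence and not a site of binding.

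Outside the listed members, 92 further genes of the same signalling were taken from a list of other ligands, receptors, adaptors, kinases and feedback genes, of which 77 had a probe and 53 were tested. Of these 0 were called higher and 1 was called lower, against 0.795% of all rows, and the median difference was −0.02. At an unadjusted p under 0.05 there were 15, 6 higher and 9 lower (28.3%, against 16.5% of all rows). The list was chosen with earlier results of these data known, so the larger share can follow from the choice. Spry4, among the 9 lower, entered the test through its controls alone. The gene called lower was Fgf1, an FGF ligand that binds all FGF receptors. It had 3318.6 and 3900.2 units in control and 1206.5 and 1437.5 in knockout on its brighter probe, and 1229 and 1113.8 against 447.4 and 315.5 on the dimmer. It fell by 1.69 on the log2 scale (SE 0.21, limma adjusted p = 0.0494), and the dimmer probe differed by −2.70. The call was just inside the threshold: it held under 5 of the 10 alternatives that kept all arrays (adjusted p from 0.00163 to 0.0923), and in no fit that left an array out.

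The other genes of that list with the smallest p were Dusp6, Irs2, Spry4, Nrg4 and Pik3r1, and none passed by its tested probe. Nrg4, a neuregulin that binds ErbB4, had 1149.5 and 1112.1 units in control and 345 and 511.6 in knockout. Both knockouts were well below both controls, at a difference of −2.27 (SE 0.37, limma adjusted p = 0.0862). Pik3r1, the regulatory subunit of PI 3-kinase that receptors recruit beside Grb2, had 4300.1 and 4254.2 units against 2799.5 and 2632, with a difference of −0.76 (SE 0.17, adjusted p = 0.147) and of −0.59 on a further probe. Dusp6, the phosphatase that ERK induces against itself, differed by −1.83 (adjusted p = 0.0579) and passed under 4 of the 10 alternatives that kept all arrays. Its dimmer probe differed by −2.12, and with probes as separate rows that probe passed (limma adjusted p = 0.0372), which made Dusp6 and not Fgf1 the 1 gene of the list called there. Spry4, an inhibitor of the pathway that ERK induces, was at 279.7 and 275.6 units in control and below detection at 194.9 and 200.7 in knockout. Irs2, the insulin receptor substrate, was at 459.1 and 445.6 units in control and at 1547 and 1006.9 in knockout (difference 1.97, adjusted p = 0.0653). Of the 10 alternatives that kept all arrays, Irs2 passed under 3, Nrg4 under 2 and Pik3r1 under 1. Spry4 passed under 0 of its 9. These genes were picked for their small p, so that groups apart from each other follow from the choice, and Spry4 entered the test through its controls alone; over the list 25 of 53 genes (47.2%) had groups that did not overlap, against 48.6% of all rows.

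**Figure D4:**
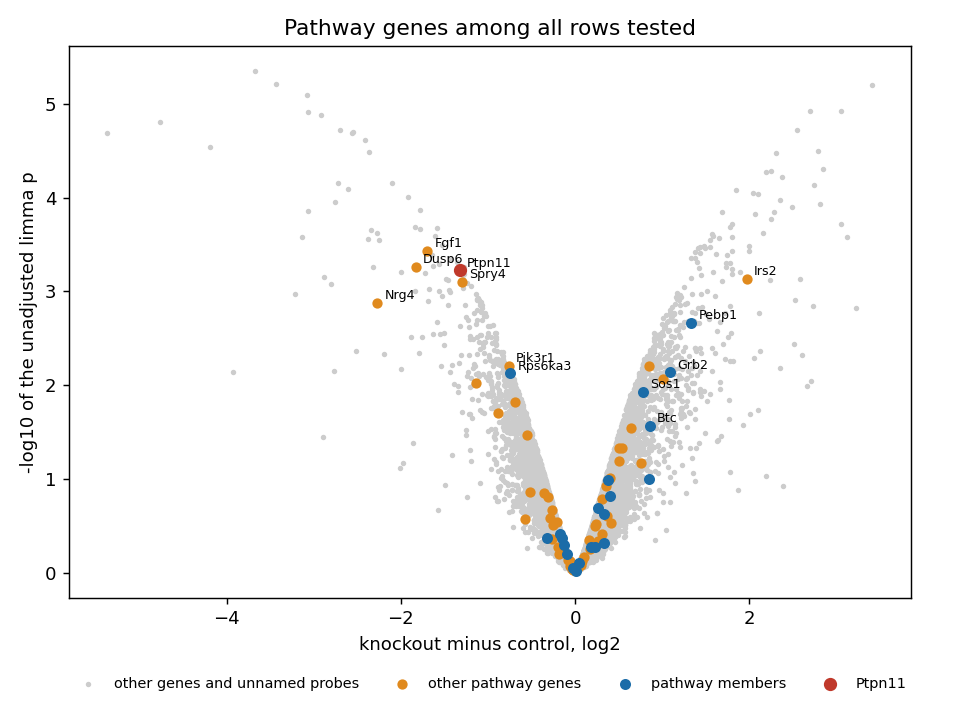
All 9311 rows tested, with the difference between knockout and control (log2) on the x axis and −log10 of the unadjusted limma p on the y axis. The 21 pathway members (blue) lie mostly near the centre, with the fitted difference of Pebp1 at 1.33; of the 53 other pathway genes (orange), Fgf1, Dusp6, Spry4 and Nrg4 lie to the left, as does Ptpn11 (red), and Irs2 to the right.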

How the data were processed

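Per the file headers, the deposited scanner table holds 25697 probes on 4 arrays, each with an average bead intensity and a detection p-value. Intensity is linear, background was not subtracted, and all arrays have a mean of 1186.5, so they had been scaled before deposit; the software is not given in the sources used here. A second deposited table holds processed intensity of the same arrays, linear, with 25.4% of values below 0 on control replicate 2 and medians of 31.58, 31.61, 31.62 and 31.63; it ranks probes as the scanner table does (Spearman correlation 1), is close to a straight line against it (Pearson correlation 0.9991 to 0.9998 over probes, slope 0.944 to 0.989) and served as an alternative only. Its background and normalization methods are unknown, while its linear scale and its direction follow from that match.

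Rows with no probe identifier (4) were left out. The function neqc (limma 3.58.1, R 4.3.3) gave normalized log2 values (background from detection p-values, offset 16, quantile). A probe entered at a detection p under 0.05 on at least 2 arrays (12197 probes), and the brightest of a gene's passing probes stood for the gene. Symbols came from the platform annotation (23978 probes with 1, 1719 with none, 0 with several). Groups were compared with lmFit and eBayes (2 residual degrees of freedom, 3.375 prior), two-sided. The fit was run on data simulated from its own model, as a check of the code only. The share of true changes that it would call with 2 arrays per group is not reported here. A bound, written as at least N-fold, sets the brighter group's mean against the dimmer group's mean of the higher of the probe's value and the array's lowest detected value. It describes these arrays and carries no sampling error. The number of arrays limits the precision. Alternatives were the processed table (log2 after a floor of 16), an offset of 50, median centring, cyclic loess, other detection filters, other treatment of probes, other variance models and leaving out each array. All arrays bear 1 chip number in the labels, so the chip did not differ between the groups. The letters after that number are A and B for the controls and C and D for the knockouts. Anything that goes with the letter cannot be told apart from the knockout. Named genes were all members, Ptpn11 and the 6 other pathway genes with the smallest p. Markers were named for hepatocytes, bile duct cells and lymphocytes only. These were the 2 brightest of hepatocytes, Alb, the tested markers of the other lists, and those that did not pass the detection filter. Members and lists were chosen with earlier results of these data known.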

Additional observations from a re-analysis of the deposited data

How the results depend on the processing

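No paired analysis was made, as nothing in the labels pairs a control with a knockout. The labels number the knockouts only, and the controls were numbered here in the order of the arrays. The count of 0 members changed was the same under 8 of the 10 alternatives that kept all arrays and under all 4 fits that left out an array; it was 1, Pebp1, with an offset of 50 and with an intensity trend. Over all rows 74 were called, 15 from the deposited processed values, 160 with an offset of 50, 340 with an intensity trend and 44 with every probe on its own, and 0 to 26 when an array was left out (0 without control replicate 2 and without either knockout array). Of the other pathway genes 1 was called; the count was 0 from the processed values, with cyclic loess, with no detection filter and with robust eBayes, 2 with a gene's probes averaged, 3 with detection on all 4 arrays, 4 with an offset of 50 and 5 with an intensity trend, and 0 in each fit without an array. The members' median of 0.23 was 0.32 with median centring, which moved the median of all rows to 0.09, and 0.049 with detection on all 4 arrays, and ran from 0.065 to 0.22 when an array was left out. Ptpn11 passed with an offset of 50 (−1.32, adjusted p = 0.0180), with detection on all 4 arrays (−1.33, adjusted p = 0.0361) and with an intensity trend (−1.33, adjusted p = 0.00166). Pebp1 differed by 1.28 with an offset of 50. Map2k2 changed sign to −0.01 with cyclic loess and to −0.20 with the mean of its probes. When an array was left out, ranges that crossed 0 were −0.83 to 0.21 for Egfr, −0.23 to 0.70 for Frs3, −0.15 to 0.089 for Shc1, −0.0021 to 0.099 for Rras, −0.10 to 0.47 for Rasa1, −0.33 to 1.01 for Map2k1 and −0.038 to 0.053 for Map2k2. The causes of these changes were not tested; with an array left out, 1 group holds a single sample, assumed to vary like the other. Signal near background limits Btc, Met, Grb2, Sos1, Frs3, Nf1 and Rps6ka3, and Map2k1 on control replicate 1 (279.3 units).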
